A study of Mus musculus with 5 samples.

Results

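The regions described here are the places in the mouse heart genome where anti-ACAA2 chromatin immunoprecipitation sequencing (ChIP-seq) gave a called interval near or inside a gene, without a promoter by the authors' annotation. They are the rows of the deposited region table to which the authors assigned at least 1 gene and no promoter, and they number 440 of 3885 (11.3%). A further 3208 regions carry a promoter and 237 have no assigned gene. Of the 440 regions, 363 were assigned to 1 gene and 77 to several. They name 462 gene symbols, of which 157 (34.0%) also have a region with a promoter elsewhere in the table.

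The study crossed surgery with diet in male C57Bl/6J mice labelled as 12 weeks old. All mice ate a diet with 10% or 60% of its energy as fat for 4 days, then had a sham operation or transverse aortic constriction (TAC, a band on the aorta that overloads the left ventricle), and stayed on their diet for another week. This gave 4 groups, namely sham and TAC on 10% fat and sham and TAC on 60% fat, with 1 library each, labelled as a pool of 3 hearts. With 1 library in a group there is no replicate spread and no test, so every comparison below describes 4 libraries and not the 4 conditions. The labels disagree on the antibody: anti-ACAA2 stands in the title, the design, the antibody field and the table's column names and is used here, but the protocol text for the chromatin speaks of antibodies to histone H3 butyrylated or acetylated at lysine 9. A pooled input is listed among the samples and is not analysed here. Whole heart holds many cell types, and a lower signal in fewer cells cannot be told apart from a lower signal in each cell.

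ACAA2 is the mitochondrial 3-ketoacyl-CoA thiolase, the enzyme of the last step of the fatty acid beta-oxidation spiral, which releases acetyl-CoA. Acetyl-CoA is also the donor for histone acetylation in the nucleus. Sequence inside or beyond a gene body can hold enhancers, alternative starts of the same gene, or starts of other genes, including the short genes of transfer RNAs that RNA polymerase III transcribes.

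A part of the regions overlapped the surroundings of a gene start in the RefSeq annotation. RefSeq (GRCm38.p6, which shares the coordinates of the mm10 build used by the authors) was available as windows from 250 bases before to 50 bases after each start. Of the 427 regions on chromosomes that these windows cover, 48 (11.2%) overlapped such a window, against 67.6% of the regions with a promoter and 6.14% of those without a gene. In 35 of the 48 the window belonged to the assigned gene itself, and in the other 13 only to another gene. Windows are printed below for Tmem39a and Ptpa (named Ppp2r4 in the table), which the naming rule picked for high signal and for calls in every library, and for 4 further genes chosen for being discussed below. Among these is Tef, whose mean signal was above that of Tmem39a but whose region shares its row with a predicted gene, which the rule skips. Capitals mark the bases that lie inside the deposited region, and the start site is the base after the first 250. The files do not say whether their first base is counted as 0 or 1, so the edge of the capitals may move by 1 base.
Tmem39a, chr16:38562564-38562863, plus strand: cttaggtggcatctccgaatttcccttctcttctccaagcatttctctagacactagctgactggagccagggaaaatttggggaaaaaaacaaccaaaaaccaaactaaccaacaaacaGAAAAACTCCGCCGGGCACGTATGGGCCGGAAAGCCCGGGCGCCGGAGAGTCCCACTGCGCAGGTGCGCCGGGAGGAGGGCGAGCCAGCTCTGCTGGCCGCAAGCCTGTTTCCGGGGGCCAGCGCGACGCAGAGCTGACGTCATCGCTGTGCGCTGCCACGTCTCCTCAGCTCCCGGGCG
Ptpa, chr2:30441603-30441902, plus strand: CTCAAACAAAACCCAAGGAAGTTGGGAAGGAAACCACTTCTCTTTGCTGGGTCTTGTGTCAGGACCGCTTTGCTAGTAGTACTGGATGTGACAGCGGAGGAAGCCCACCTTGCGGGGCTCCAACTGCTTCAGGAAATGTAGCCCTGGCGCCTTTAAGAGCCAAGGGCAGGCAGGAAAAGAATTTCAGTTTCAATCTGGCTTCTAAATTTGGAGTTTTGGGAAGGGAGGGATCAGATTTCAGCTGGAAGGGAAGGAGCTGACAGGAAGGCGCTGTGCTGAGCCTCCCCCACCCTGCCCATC
Tef, chr15:81811164-81811463, plus strand: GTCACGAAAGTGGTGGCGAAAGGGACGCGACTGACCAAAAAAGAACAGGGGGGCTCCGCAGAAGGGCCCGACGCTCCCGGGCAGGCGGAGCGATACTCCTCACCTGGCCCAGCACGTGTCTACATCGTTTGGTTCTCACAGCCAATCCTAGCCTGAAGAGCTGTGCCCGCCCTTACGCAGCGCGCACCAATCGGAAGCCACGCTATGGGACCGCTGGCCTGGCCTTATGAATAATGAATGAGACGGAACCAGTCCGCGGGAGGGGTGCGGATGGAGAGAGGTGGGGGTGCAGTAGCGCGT
Sgk1, chr10:21994416-21994715, plus strand: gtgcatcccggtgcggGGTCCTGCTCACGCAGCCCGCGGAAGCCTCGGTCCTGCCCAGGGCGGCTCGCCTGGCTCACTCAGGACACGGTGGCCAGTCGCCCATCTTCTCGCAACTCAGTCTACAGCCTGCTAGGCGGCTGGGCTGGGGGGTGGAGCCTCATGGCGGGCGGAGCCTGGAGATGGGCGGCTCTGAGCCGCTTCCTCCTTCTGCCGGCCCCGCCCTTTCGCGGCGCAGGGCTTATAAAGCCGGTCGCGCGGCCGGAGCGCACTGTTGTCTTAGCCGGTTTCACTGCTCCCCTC
Pfkfb3, chr2:11502041-11502340, minus strand: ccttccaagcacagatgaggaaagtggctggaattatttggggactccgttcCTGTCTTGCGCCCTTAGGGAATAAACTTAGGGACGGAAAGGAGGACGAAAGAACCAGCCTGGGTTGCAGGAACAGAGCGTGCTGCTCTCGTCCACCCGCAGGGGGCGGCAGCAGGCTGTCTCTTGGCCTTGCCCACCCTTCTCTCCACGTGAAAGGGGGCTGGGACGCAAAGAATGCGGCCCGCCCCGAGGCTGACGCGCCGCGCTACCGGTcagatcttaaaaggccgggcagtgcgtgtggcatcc
Cdkn1a, chr17:29093519-29093818, plus strand: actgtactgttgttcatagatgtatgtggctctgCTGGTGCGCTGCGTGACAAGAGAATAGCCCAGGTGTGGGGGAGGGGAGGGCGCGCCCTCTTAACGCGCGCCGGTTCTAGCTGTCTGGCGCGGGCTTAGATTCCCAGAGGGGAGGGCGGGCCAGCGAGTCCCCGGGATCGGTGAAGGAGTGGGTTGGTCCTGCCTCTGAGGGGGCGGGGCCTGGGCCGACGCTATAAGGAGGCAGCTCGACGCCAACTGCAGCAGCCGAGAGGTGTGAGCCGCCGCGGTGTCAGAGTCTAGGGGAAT

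The deposited distance put these regions far from the start used by the authors, at 4096 bp for Tmem39a, 25559 bp for Ptpa, 8724 bp for Tef, 112447 bp for Sgk1, 51747 bp for Pfkfb3 and 2760 bp for Cdkn1a. Each nevertheless covered a start that RefSeq gives to a transcript of the same gene. The windows of Tef and Ptpa lay entirely inside their regions, with 300 of 300 bases, and that of Tmem39a shared 180 bases. Short motifs were searched on both strands of the whole windows, also in bases outside the region, and matches that overlap each other were all kept. Some genes have several windows, which can overlap. The GC box GGGCGG was present in 42 of 56 windows overlapped by these regions (75%), in 69.5% of 2807 windows overlapped by regions with a promoter and in 35.6% of all 32817 windows. CCAAT was found in 33.9%, 45.4% and 37.4% of the same 3 sets, the E-box CACGTG in 12.5%, 12.4% and 7.15%, and the nuclear receptor half-site AGGTCA in 16.1%, 10.5% and 16.3%. The AP-1 motif TGANTCA was in 7.14%, 3.78% and 7.81%, and the GATA motif AGATAA in 1.79%, 4.56% and 11.2%. In the printed windows the E-box lay 138 bases before the start of Tef and 53 bases before that of Pfkfb3, Tef also had 2 CCAAT boxes, and Sgk1 had 4 GC boxes. A letter match describes the sequence and is not a binding site. By composition the 56 windows were close to those of regions with a promoter, with a median GC content of 61.2% against 62.0% and a median of 21.5 against 24 CpG dinucleotides; over all windows the medians were 52.7% and 7.

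Most of the 440 regions lay inside a gene. The table places 303 (68.9%) in at least 1 assigned gene, 97 (22.0%) downstream of genes only, 27 (6.14%) upstream only and 13 (2.95%) upstream of one gene and downstream of another. The nearest start of an assigned gene was a median of 19799 bp away, with quartiles at 8834 and 62175.5 bp. It was closer than 5 kb in 41 regions (9.32%), 5 to 10 kb away in 105 (23.9%) and at least 100 kb away in 74 (16.8%). For regions with a promoter the median was 163 bp. Among regions with a single gene, those with a promoter lay between -7578 and 2579 bp from the start, a minus sign meaning before it, while the regions described here begin at 2637 bp after the start and at -7795 bp before it, so the classes border on each other. The 3 nearest were Ddit4 (an inhibitor of mTOR induced by stress and glucocorticoids) at 2637 bp, the region shared by Kank3 and Rps28 at 2700 bp, and Cdkn1a (the cell cycle inhibitor p21) at 2760 bp. The 3 farthest lay deep inside long genes, in Camta1 at 766165 bp, Ptprg at 505867 bp and Ank3 at 431232 bp.

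**Figure D1:**
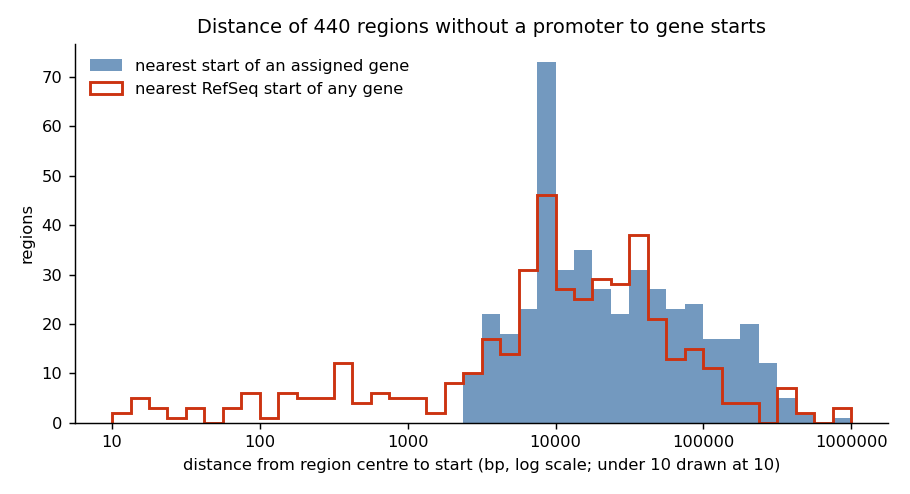
Number of regions without a promoter (y axis) by distance in bp to a gene start (x axis, log scale), to the start of an assigned gene (filled, 440 regions) and to the nearest start in RefSeq (outline, 427 regions). The filled bars begin at 2637 bp, while 67 regions of the outline lie within 1000 bp of a RefSeq start.

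Measured against every RefSeq start, the distances to a start were shorter, which a search over more starts tends to give. The median distance became 11126 bp over 427 regions, and 67 (15.7%) lay within 1000 bp of a start and 85 (19.9%) within 2500 bp. In 239 regions the nearest RefSeq start was closer than the assigned one. CpG islands, the CG-rich stretches found at many promoters, were annotated in 96 regions (21.8%), against 84.5% of regions with a promoter and 23.6% of regions without a gene. Of these 96, 34 overlapped a RefSeq start window and 62 did not. Overlap with a RefSeq transfer RNA gene was found for 14 regions (3.18%), against 1.56% of regions with a promoter and 5.91% of regions without a gene. Examples are the region downstream of Fcgr3 (an immunoglobulin receptor) on chromosome 1, which overlaps n-TGgcc4, and the region between Per1 and Hes7 on chromosome 11, which overlaps n-TScga3.

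A region entered the table because at least 1 library had a called interval there, and most of these were called once. Calls came from 1 library in 348 regions (79.1%), from 2 in 64, from 3 in 21 and from all 4 in 7. The 92 regions called in 2 or more libraries are 20.9% of the regions, where the share over the whole table was 36.2% and that of regions with a promoter 39.1%. Sham on 10% fat gave 233 of the calls, TAC on 10% fat 155, sham on 60% fat 50 and TAC on 60% fat 129. The libraries ranked alike over the whole table, with 2225, 1820, 600 and 1396 calls in this order. Called in that library alone were 157, 95, 24 and 72 of the 440 regions, or 35.7%, 21.6%, 5.45% and 16.4%. Over all 3885 regions these shares were 27.5%, 19.6%, 3.35% and 13.4%. Repeated calls were more frequent where a region had features of a start. Of regions with a CpG island 40.6% were called in 2 or more libraries, against 15.4% of those without, and the share was 41.7% with a RefSeq start window, 64.3% with a transfer RNA gene, 28.1% under 10 kb from an assigned start and 8.11% at 100 kb or more. Regions called in 2 or more libraries had a median length of 441.5 bp, and all 440, which include them, one of 268 bp. Each region is a merge of the intervals called there, so several calls can lengthen it. The part of merging in the lengths was not tested.

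The signal of a region is the average height of the fragment pileup over it, as deposited, with no depth factor applied. In the sham library on 10% fat it had a median of 11.3 over the 440 regions, in TAC on 10% fat 8.76, in sham on 60% fat 6.20 and in TAC on 60% fat 8.31. Regions with a promoter had medians of 11.9, 11.1, 7.50 and 9.88 in the same order. The gap between the 2 classes was therefore smallest in the sham library on 10% fat and largest, in pileup units, in the TAC library on 10% fat. A region is bound to be high where it was called, and the calls differed too. In sham on 10% fat 53.0% of the 440 regions and 57.9% of those with a promoter were called. In TAC on 10% fat these shares were 35.2% and 49.1%. The part of the calls in the gaps was not tested. Multiplying by region length and dividing by 224 bp, a constant that the deposited fragment estimates give exactly, yields a median of 14.2, 11.2, 8.13 and 10.8 fragments per region. With so few fragments the counting interval of a single region is wide, and it covers counting error only.

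**Figure D2:**
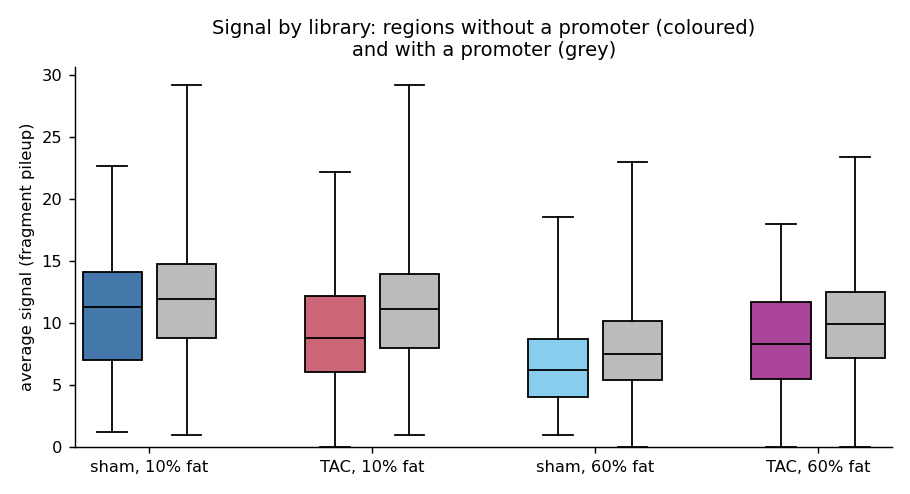
Average signal (y axis, fragment pileup) in each of the 4 libraries for the 440 regions without a promoter (coloured) and the 3208 with one (grey); boxes show quartiles, the line the median and whiskers the lowest and highest region. The coloured medians are 11.3, 8.76, 6.20 and 8.31 from left to right and each lies under its grey neighbour.

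Below, the average signals of a region are given in the order sham and TAC on 10% fat, then sham and TAC on 60% fat. The regions named for the highest mean signal are described first. Zbtb16, a zinc finger repressor induced by glucocorticoids, had a region at chr9:48723401-48724135, 112177 bp inside the gene, with average signals of 21.1, 14.3, 13.6 and 12.8. It was called in all 4 libraries and highest in sham on 10% fat. A second Zbtb16 region at 95582 bp had 17.0, 17.5, 13.1 and 11.5, with both 10% fat libraries above both 60% fat libraries. Bcl2l1, which encodes the survival protein Bcl-xL, had 20.4, 19.1, 10.3 and 14.3 at 11202 bp inside the gene, again higher on 10% fat. At the start window of Tmem39a printed above the signals were 17.9, 16.1, 10.4 and 11, in the same order of diets. Over all 3885 regions the medians were 11.8, 10.7, 7.29 and 9.67, so this order is also that of the whole table. The Bcl2l1 and Tmem39a regions were each called in the libraries on 10% fat only. The region of Cln6, a gene of the endoplasmic reticulum whose loss causes a lysosomal storage disease, lay upstream and had 22.6, 12.1, 16.1 and 14.9. Mafk, a small Maf transcription factor, had 17.5, 7.17, 15.2 and 18 in a region shared with Tmem184a, so that TAC on 10% fat stood below the other 3 libraries. The Fcgr3 region with the transfer RNA gene had 18.8, 19.8, 7.38 and 12.5. Downstream of Dhx37, an RNA helicase gene, they were 15.4, 11.9, 12.6 and 15.9.

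In 7 regions every library had a called interval. Besides Zbtb16 they lay upstream of Pemt (which makes phosphatidylcholine from phosphatidylethanolamine), downstream of Casp16 and Zfp213, inside Ccnd3 (cyclin D3) and upstream of Taf8, at the Ptpa start printed above, downstream of Polr3gl (a subunit of RNA polymerase III) and in Chd2 (a chromatin remodeller). The signals of the Ptpa region were 12.4, 13.5, 13.0 and 12.2. Those of the Casp16 and Zfp213 region, which overlaps the arginine transfer RNA gene n-TRccg2, were 13.2, 12.5, 13.1 and 13.6. Both differed little between libraries. Chd2 had 12.1, 11.8, 10.0 and 13.3 over the region that was the longest, at 1052 bp. Taf8 and Ccnd3 had 10.7, 19.1, 11.2 and 13.0, with TAC on 10% fat on top (log2 ratio to sham 0.78, counting interval 0.17 to 1.54). For Pemt the 4 signals were 19.1, 11.7, 10.3 and 11.1, and for Polr3gl 18.8, 11.7, 13.5 and 15.6, both highest in sham on 10% fat.

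Some genes carried several regions. There were 57 genes with at least 2 and 6 with at least 4. Nfia, a nuclear factor I transcription factor, had 8 regions over 118 kb inside the gene and no region with a promoter. Each of the 8 was called in a single library. Its signal in sham on 10% fat ran from 5.08 to 17.7, and in 6 of the 8 it was above that in TAC on 10% fat. The region at 232787 bp had 15.8, 4.27, 5.27 and 4.18, so that only sham on 10% fat was high, and that at 287403 bp had 17.7, 6.46, 7.46 and 5.91. Their neighbour at 286687 bp showed the opposite order on 10% fat, with 5.08, 17.4, 9.38 and 4.54. These last 2 are separated by 318 bp, and the high library of each is the one in which it was called.

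Cd36, which takes up fatty acids at the cell surface, had 4 regions over 64.5 kb in the gene, all called in sham on 10% fat alone. In order along the chromosome their signals were 12.5, 1.5, 4.00 and 2.17, then 9, 1.00, 1.33 and 3.67, then 12.8, 2.75, 7.12 and 7.62, and last 10.6, 6.22, 2.80 and 8.56. Sham on 10% fat was the highest library in each. The region with 12.8 in that library overlaps a RefSeq start window of Cd36, and the gene also has 1 region with a promoter. The log2 ratio of TAC to sham on 10% fat was between -2.43 and -0.68, with counting intervals of -7.16 to -0.61 and -2.23 to 0.60 for these 2 extremes. On 60% fat the same 4 ratios ranged from -0.66 to 1.33. Since the calls that brought these regions into the table were made in sham on 10% fat, that library was bound to be high in them.

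Sgk1, a kinase induced by glucocorticoids and cell stress, had 4 regions within 3.76 kb, of which 2 overlap RefSeq start windows of the gene. The region over the printed start had 13.0, 8.31, 7.15 and 15.8, high in sham on 10% fat and in TAC on 60% fat. In the other 3 the signal in sham on 10% fat was 10.2 to 11.9 and in sham on 60% fat 3.27 to 7. Adamtsl4, a gene of the fibrillin microfibrils, had 4 regions downstream, one of them shared with Mcl1, another survival gene of the Bcl2 family. That shared region had 4.38, 12.4, 6.75 and 7, with TAC on 10% fat highest. Tef, a clock output transcription factor, had 3 regions, and its printed start region reached 20.6, 18.1, 11.8 and 16.0, a mean of 16.6 over the 4 libraries. The region 109 bp before it had 20.4, 10.9, 12.2 and 14.7, and the one downstream of the gene 15.3, 7.36, 14.3 and 9.73. All 3 were highest in sham on 10% fat.

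**Figure D3:**
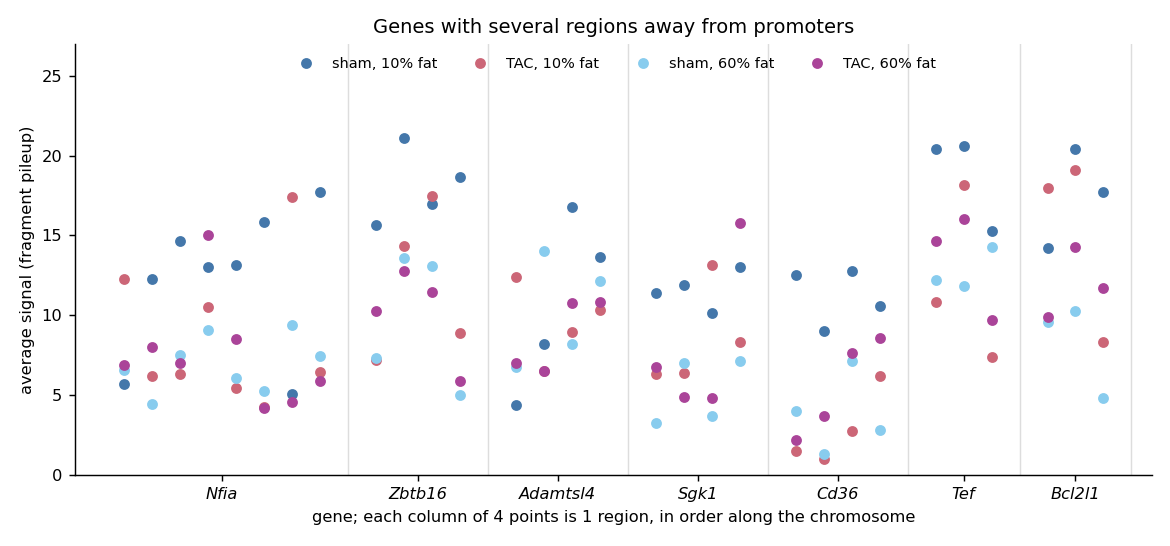
Average signal (y axis, fragment pileup) of each region of 7 genes with several, 1 column of points per region in chromosome order, with 1 point per library; points can hide each other where signals are equal. In the 4 Cd36 columns the sham point on 10% fat is the highest, at 9 to 12.8.

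Lists of heart genes met few of these regions. Of 338 listed genes 32 had a region away from promoters, 53 regions in all. Among energy genes, 3 of 34 genes of fatty acid uptake and oxidation had one, namely Cd36, Acacb and Lpl, while 16 of the 34 had a region of any kind. Acacb, the acetyl-CoA carboxylase that makes malonyl-CoA at mitochondria, had 11.3, 10.2, 6.80 and 12.4, with sham on 60% fat lowest. Lpl, the lipase that frees fatty acids from lipoproteins, had 8.33, 6.00, 10.8 and 6.50 in a region downstream. Of 40 genes of glucose use, pyruvate and the tricarboxylic acid cycle only Pfkfb3, which makes the activator of glycolysis fructose 2,6-bisphosphate, had one. Its printed start region had 9, 9.71, 8.86 and 16.1, highest in TAC on 60% fat, while a second region 13814 bp from an assigned start had 19.5, 17.1, 6.47 and 9.13, higher on 10% fat. The 2 regions of 1 gene thus ranked the libraries differently.

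Contractile and calcium genes had 9 regions, of which 5 were called in sham on 10% fat alone, as were 35.7% of the 440 regions and 27.5% of the whole table. Ttn, the giant spring of the sarcomere, had 11.7, 2.43, 2.71 and 1.00, and Synpo2, a Z-disc protein, 11.5, 3.82, 3.00 and 3.64. Upstream of Myh7, the slow myosin heavy chain that is a marker of hypertrophy in the mouse, the signals were 12.7, 6.82, 6.46 and 4.18. In these 3 sham on 10% fat was the highest library. Xirp1, an actin-binding protein of the intercalated disc, had 2 regions downstream, with 8, 19.7, 6.86 and 5.57 in one and 11, 12.3, 6.00 and 6.10 in the other. Cacna1c, the L-type calcium channel, had 13.2, 2.89, 5.44 and 3.89, and Itpr2, an inositol trisphosphate receptor, 17.3, 6.33, 5.33 and 7.33, both highest in sham on 10% fat. Of the calcium/calmodulin kinases, Camk2d had 2.25, 6.12, 3.62 and 11.9 and Camk2g 5.29, 10.1, 13.1 and 9.29. Each of these kinase genes was highest in the library that called it, TAC on 60% fat for Camk2d and sham on 60% fat for Camk2g. Hypertrophy genes with a region were Rcan2, Hdac5 and Igf1r. Rcan2, an inhibitor of calcineurin, had 15.9, 9.75, 6.25 and 1.00, Hdac5, a repressor of hypertrophy genes, 14.9, 8.22, 6.89 and 10.0, and Igf1r, the receptor of insulin-like growth factor 1, 8.46, 15.0, 9.09 and 4.73.

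Regions were also found at 8 of 52 immediate early and stress genes, 3 of 19 clock genes and 5 of 21 genes of nuclear factor I and chromatin architecture. Ddit4 had 10.8, 20.1, 6.25 and 5.38 just downstream of the gene, with TAC on 10% fat highest. Fos, a subunit of AP-1, had 6.17, 8.83, 6.17 and 12.8, and Fkbp5, a glucocorticoid target, 11.8, 8.89, 9.56 and 5.56. The Per1 region at the transfer RNA gene had 12.1, 10.8, 5.25 and 13.8, with sham on 60% fat lowest, and the one downstream of Bhlhe41, a clock repressor, 12.9, 3.10, 7.70 and 9.10, with TAC on 10% fat lowest. Of the chromatin genes, Nfic had 13.5, 14.5, 13.6 and 8.04 and was lowest in TAC on 60% fat, and the bromodomain gene Brd2 10.5, 16.1, 5.90 and 9.30. Arid1b, a subunit of the SWI/SNF remodeller, had 2 regions 46 bp apart, with 14.3, 6.57, 7.29 and 3.57 and with 7, 14.2, 6.00 and 6.67, again with the calling library on top in each. Few markers of cell types had such a region, and few had a region of any kind. Among 10 cardiomyocyte markers Ttn and Myh7 had one, and 4 had any region; among 8 endothelial markers Kdr had one, and no other marker of that list had any region. No such region was at the 8 macrophage and leukocyte and 4 adipocyte markers, of which 1 each had a region of another kind. The 8 fibroblast, 6 smooth muscle and 4 neuron markers had 0 regions of any kind. Over the 53 listed regions, TAC on 10% fat was at least 2-fold lower than sham in 16 (30.2%) and higher in 4 (7.55%), with a median log2 ratio of -0.59, where all 440 regions gave 22.5%, 10.2% and -0.33 and all 3885 regions 11.7%, 7.98% and -0.14. A few genes weigh heavily in the share of 16: Nfia supplied 8 of the 53 regions and 4 of the lower ones, and Cd36 4 and 3. Zbtb16 supplied 4 and 1, and Sgk1 4 and 0. All Cd36 regions were called in sham on 10% fat alone. The lists were chosen with earlier results of these data known, so these shares are not independent of the data. On 60% fat TAC was lower in 1 and higher in 5 of the 53, with a median of 0.13 against 0.33 over the 440 regions. On 60% against 10% fat, 20 were lower and 1 higher in sham hearts (median -0.76, against -0.67), and 6 lower and 4 higher in TAC hearts (median 0.07, against -0.05).

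Ratios between libraries are log2 of (average signal + 1) over (average signal + 1). In the TAC against the sham library on 10% fat, 99 of the 440 regions (22.5%) had at least 2-fold less signal and 45 (10.2%) at least 2-fold more. Over all 3885 regions these shares were 11.7% and 7.98%. The median was -0.33 (95% interval over regions -0.42 to -0.18), against -0.14 over all regions. The higher regions made up 31.2% of those past 2-fold, and 42.9% once every ratio was centred on the median of all regions. Lower in TAC were Lrrc58 (14.3 in sham and 1.33 in TAC), Ank3, which encodes an anchor of ion channels (13.5 and 1.33), Kdr, the main receptor of vascular endothelial growth factor (14.4 and 2.33), Fam154a (13.2 and 2.17), Fndc3b (18.4 and 4.10) and Cacna1c. Their log2 ratios ran from -2.71 to -1.87, and each was called in sham on 10% fat alone. Higher in TAC were Slc44a2, a choline transporter (2.83 and 14.8), Arpc3, a subunit of the actin nucleator Arp2/3 (3.57 and 16.1), Col4a3bp, the ceramide transfer protein (3.14 and 14.1), the noncoding Dleu2 (3.14 and 13.1), Mrpl48 of the mitochondrial ribosome (7 and 19.8) and the Nfia region at 286687 bp. These ratios ran from 1.38 to 2.05, and each was called in TAC on 10% fat alone. A second Mrpl48 region in the same gene had 17.9 in sham and 6.71 in TAC.

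On 60% fat TAC was higher more often than lower, as over the whole table. Of the 440 regions 92 (20.9%) were at least 2-fold higher than in sham and 26 (5.91%) lower, where all regions gave 15.5% and 3.11%. The median was 0.33 (0.26 to 0.43) and that of all regions 0.32. Centred on the latter, 49 regions were higher and 49 lower, so the direction is that of the whole table. Of the 340 called in either library on 10% fat, 47 were higher and 15 lower, against 9.93% and 2.15% of such regions in the whole table. Those highest in TAC were Rgs3, a regulator of G protein signalling (1.57 in sham and 12.0 in TAC), Fam102b (2.44 and 15.1), Fndc3b (2.50 and 12.6), Dopey2 (3.57 and 16.3), the glycosyltransferase Mgat5 (2.43 and 11.7) and the RNA-binding Msi2 (3.75 and 16.0). The log2 ratio of Fam102b was 2.22, with a counting interval of 1.14 to 4.52. Lowest in TAC were Wisp3 (18.1 and 4.00), Angel2 (9.50 and 2.75), Edc3 of mRNA decapping (11.6 and 3.71), the transporter Slco3a1 (12.6 and 4.57), the corepressor Ctbp2 (12.9 and 4.78) and Ankrd44 (18.5 and 7.62).

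The high-fat diet in sham hearts went with the lowest signals of the table. Of the 440 regions 153 (34.8%) were at least 2-fold lower on 60% fat and 13 (2.95%) higher, against 24.8% and 2.01% of all regions. The median was -0.67 (-0.76 to -0.55), and -0.57 over all regions. After centring, 64 were lower and 57 higher. Of the 254 called in a TAC library, 42 were lower and 4 higher, where all such regions gave 14.2% and 1.22%. Among those with the lowest ratios were Ank3 (13.5 on 10% fat and 1.00 on 60% fat), Fam154a (13.2 and 1.00), Fndc3b (18.4 and 2.50), Asb15, a ubiquitin ligase adaptor (11.9 and 1.5) and Slc12a3, the sodium chloride cotransporter (13.2 and 2). By the naming rule 4 regions stood out as at least 2-fold higher, namely Ncoa7 (4.33 and 13.5), Camk2g, the DNA glycosylase gene Ung (5.33 and 12.3) and Wisp3 (8.57 and 18.1). The Ncoa7 region, upstream of the gene, overlaps the transfer RNA gene n-TEctc9.

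In TAC hearts the diets differed in both directions. On 60% fat 51 regions (11.6%) were at least 2-fold higher than on 10% fat and 71 (16.1%) lower, against 7% and 11.3% of all regions. The median was -0.05 (-0.17 to 0.09), that of all regions -0.14, and centring turned the split to 66 higher and 48 lower. Of the 265 called in a sham library, 15 were higher and 20 lower, against 3.25% and 5.19% of all such regions. Higher on 60% fat were Nrp1, a coreceptor of vascular endothelial growth factor (2.43 on 10% fat and 14.0 on 60% fat), the palmitoyltransferase Zdhhc7 (3.33 and 16.3), the transcription factor Dach1 (2.50 and 12.3), the cofilin phosphatase Ssh1 (2.71 and 12.9), Msi2 (3.57 and 16.0) and the cAMP phosphodiesterase Pde4b (2.67 and 12.5). Lower were Gab1, a docking protein of growth factor receptors (15.0 and 1.57), Atf7ip (13.6 and 2.12), Fry (13.2 and 3.00), Fggy (12.2 and 2.83), Krt10 (15.2 and 3.75) and the Nfia region at 286687 bp (17.4 and 4.54). Comparisons that share a library are not independent of each other.

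**Figure D4:**
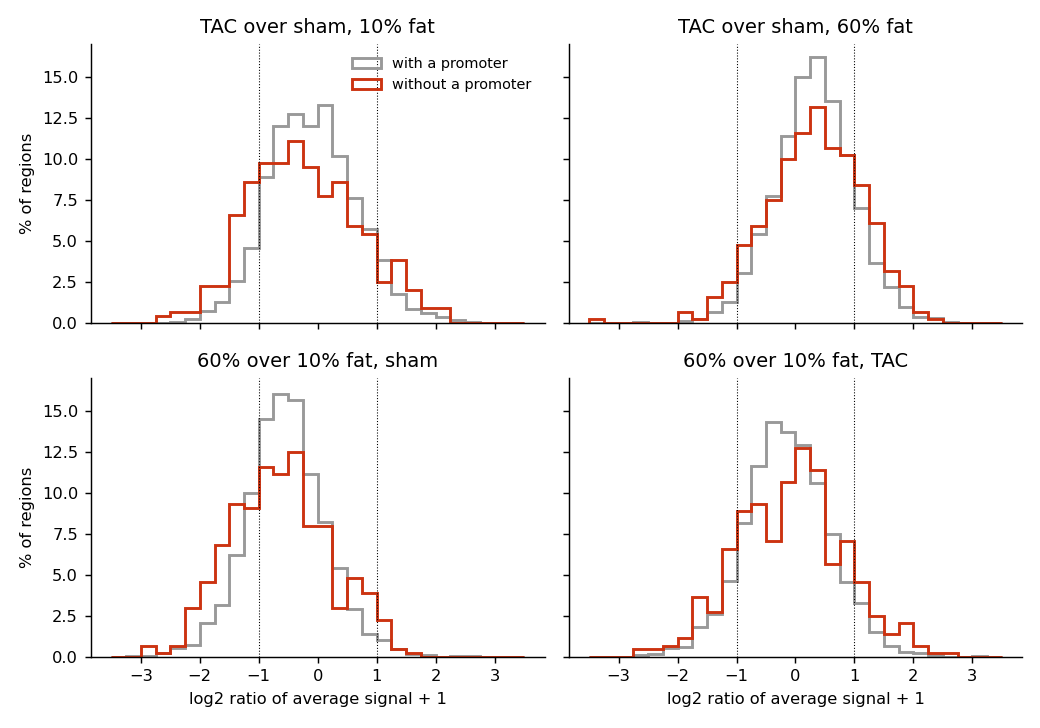
Share of regions in % (y axis) by log2 ratio of average signal + 1 (x axis) for the 4 comparisons, with regions without a promoter in red and with one in grey; dotted lines mark 2-fold. The red outline is wider in each panel, and for TAC over sham on 10% fat it has 22.5% of regions beyond 2-fold on the lower side.

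Among regions called by the same library alone, a larger share passed 2-fold here than among regions with a promoter. Such a region is bound to be high in its calling library, so the direction of its ratio follows from the call. Of the 157 regions called in sham on 10% fat alone, 83 (52.9%) were at least 2-fold lower in TAC and 0 higher; of 826 regions with a promoter called there alone, 239 (28.9%) were lower. Of the 95 called in TAC on 10% fat alone, 40 (42.1%) were higher, against 32.5% of the 619 with a promoter. Of the 72 called in TAC on 60% fat alone, 45 (62.5%) were higher in TAC than in sham on 60% fat, against 52.9% of 410. Among regions called in 2 or more libraries the 2 classes lay closer together, with 5.43% of 92 and 3.90% of 1255 at least 2-fold lower in TAC on 10% fat. On the higher side the shares were 2.17% and 2.31%, so no wider spread was seen there. Kept to regions called in a library outside the pair, 16 of 165 (9.70%) were lower and 5 (3.03%) higher, against 5.81% and 3.17% of such regions in the whole table. The part of region length and fragment number in these shares was not tested.

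Within the 440 regions the ratio of TAC to sham on 10% fat differed between those with and without a CpG island. Without an island 91 of 344 (26.5%) were at least 2-fold lower in TAC on 10% fat and 37 (10.8%) higher, and with one 8 of 96 (8.33%) were lower and 8 higher. For regions with a promoter the shares were 9.85% lower and 7.79% higher. Regions inside a gene were lower in 80 of 303 (26.4%) and regions downstream only in 13 of 97 (13.4%), the latter also higher in 13. Under 10 kb from an assigned start 18.5% were lower and 8.90% higher, with a median of -0.27. At 100 kb or more 27.03% were lower and 14.9% higher, with a median of -0.36, so both shares were larger there. None of the 14 regions with a transfer RNA gene passed 2-fold in either direction on 10% fat, and their median was -0.02. Calls moved with these classes as well: 40.1% of regions without an island and 19.8% of those with one were called in sham on 10% fat alone, and 39.9% of those inside a gene against 27.8% of those downstream. Whether that accounts for the difference in ratios was not tested.

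The surgery ratio differed between the diets in many of these regions. The log2 ratio on 60% fat exceeded that on 10% fat by more than 1 in 177 regions (40.2%) and fell short by more than 1 in 52 (11.8%), against 28.9% and 8.7% of all regions. Centred on the medians of all regions these counts were 102 and 84. In 20 regions TAC lay below sham on 10% fat and above it on 60% fat, by 2-fold or more each time, a share of 4.55% against 1.78% of all regions, and in 2 the reverse held (0.455% against 0.18%). Fndc3b had 18.4, 4.10, 2.50 and 12.6, and Epas1, which encodes the hypoxia-inducible factor HIF-2alpha, 17.4, 4.71, 3.21 and 8.36. The printed start region of Cdkn1a had 12.0, 5.33, 5.33 and 11.9. In each of these 3 genes sham on 10% fat and TAC on 60% fat were the high libraries. All 20 were called in sham on 10% fat or TAC on 60% fat, which are the libraries high in this pattern by definition.

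**Figure D5:**
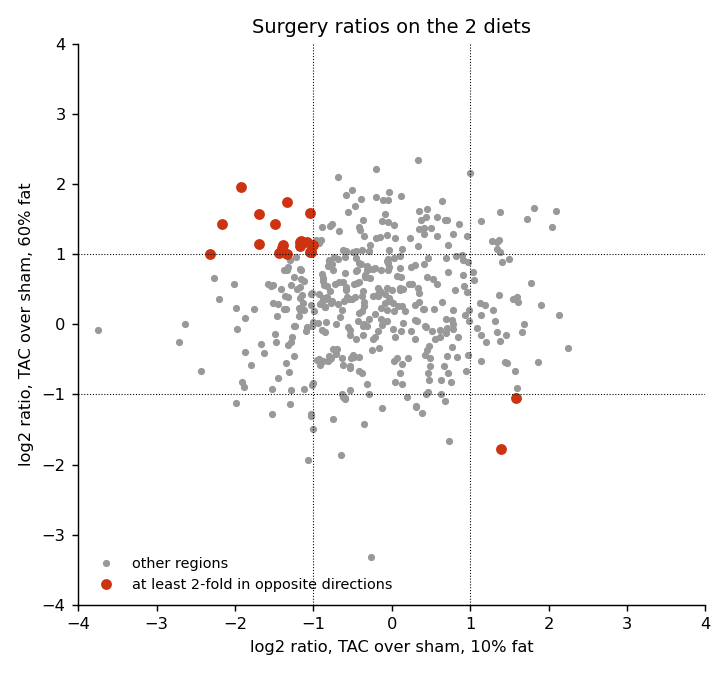
Log2 ratio of TAC to sham on 60% fat (y axis) against that on 10% fat (x axis) for the 440 regions, 1 point each; dotted lines mark 2-fold. Red points are past 2-fold in opposite directions on the diets, with 20 in the upper left and 2 in the lower right.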

How the data were processed

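ChIP-seq signal in 4 libraries (1 per group) was taken from 1 table of merged regions on mm10. The submitters' processing notes name BWA and SICER; versions, read filters, depth matching and calling cutoffs are not stated in the notes and labels used here. The average and peak signal of each library are fragment pileups over the region as deposited; the peak signal was a whole number in 100% of regions. The deposited log2 ratios of the authors equal the ratio of average signals without a pseudocount and were not used further.

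Ratios were computed here with a pseudocount of 1 and counted at 2-fold, with Python 3.11.15, numpy 2.4.6, pandas 2.3.3 and scipy 1.17.1. The counting was checked on simulated data with far more counts per region than here and changes larger than 2-fold. That check covers the arithmetic and not how the counting performs at the few fragments of these regions. Fragments were estimated as average signal times length over 224 bp, and exact Clopper-Pearson 95% intervals of a ratio use them without a pseudocount and cover counting error only. The fragments summed over all regions were 75313, 68963, 49593 and 62559 for sham and TAC on 10% fat and sham and TAC on 60% fat; sequencing depth itself is unknown. Medians carry order-statistic 95% intervals over regions, which are not replicates.

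RefSeq (GRCm38.p6) gave gene starts, transfer RNA genes and sequences. The deposited distance matched a RefSeq start within 2 bp in 932 of 1303 single-gene regions (71.5%), and 449 of 462 gene symbols were matched. Starts on chromosome 18, with 13 of the regions, were not analysed here.

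The regions and the gene lists were chosen with earlier results of these data known. Named were the 8 regions of highest mean signal, the 6 highest and 6 lowest ratios per comparison among single-gene regions past 2-fold whose higher library reached the median of the 440 regions, regions called in all 4 libraries, the 8 genes with most regions, every region of a listed gene, and the 3 nearest and 3 farthest, leaving out predicted genes, microRNAs and pseudogenes in all but the called and listed ones. The second Mrpl48 region and Epas1 were named after their values were seen. A few regions that meet this rule are not reported here.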

Additional observations from a re-analysis of the deposited data

Results flagged for a closer look

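The ratio of the TAC to the sham library had opposite signs on the diets: its median log2 value over the 440 regions away from promoters was -0.33 on 10% fat and 0.33 on 60% fat, where all 3885 regions gave -0.14 and 0.32. Centred on the medians of all regions it was -0.19 and 0.0044, so on 60% fat the sign is that of the whole table. With 1 library per group this difference was not tested. In 20 regions TAC lay 2-fold or more below sham on 10% fat and 2-fold or more above it on 60% fat, and in 2 regions the order was reversed on both diets. The 20 include regions of Fndc3b, Epas1, Cdkn1a, Bcl2l1, Cd36, Nrp1, Sesn1 and Atg16l2. Of the 20, 17 lie inside a gene and 1 has a CpG island, where all 440 regions gave 68.9% and 21.8%. The 2 others were assigned to BC026585 and Mllt4. These counts were not tested either. Of the 20, 15 were called in sham on 10% fat and 7 in TAC on 60% fat, and the part of the calls in this pattern was not tested.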

How the results depend on the processing

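Of 110 recomputed values 83 stayed close to those reported, 25 moved and 2 changed sign. Kept to regions called in a library outside the pair, TAC over sham on 10% fat gave 5 higher, 16 lower and a median of -0.18, TAC over sham on 60% fat 47 higher and 15 lower, 60% over 10% fat in sham 4 higher, 42 lower and a median of -0.39, and 60% over 10% fat in TAC 15 higher and 20 lower; fewer regions are counted there. Centred on the median of all regions, TAC over sham on 60% fat gave 49 higher, 49 lower and a median of 0.0044 (78.0% higher before, 50% after), 60% over 10% fat in sham 57 higher, 64 lower and a median of -0.097 (7.83% and 47.1%), and 60% over 10% fat in TAC a median of 0.098 in place of -0.047 (41.8% and 57.9%); by construction this removes the shift of the whole table. The difference between diets then passed +1 in 102 regions and -1 in 84. Without regions at RefSeq starts or transfer RNA genes, an alternative chosen after seeing the data, the TAC median of 60% over 10% fat was 0.0047; the cause was not tested. With a pseudocount of 2, TAC over sham on 60% fat had 14 lower; 60% over 10% fat in sham had 21 higher with a pseudocount of 0.5 and 5 with 2. The median distance was 29614 bp for regions with 1 gene and 11126 bp to any RefSeq start (added after seeing the data), the share inside every assigned gene was 59.5%, and 53 regions without a CpG island were called in 2 or more libraries. No paired analysis was possible because each group has 1 library, and no library could be left out. About 8 to 14 fragments per region and library limit each single ratio.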
